A study of Mus musculus with 12 samples.

Results

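The genes described here are those of the tricarboxylic acid (TCA) cycle, of the entry of pyruvate into it, and of anaplerosis, the reactions that refill the cycle or drain it. They are 33 autosomal genes taken by symbol from a fixed list, out of 57010 Ensembl gene IDs counted in each library, and each symbol matched exactly 1 ID. RNA was sequenced from 12 libraries of primary mouse chondrocytes, the cells that make cartilage matrix, with poly(A) capture of mRNA. The labels give 4 libraries to each of 3 treatments: control, a plasmid labelled WT (called SIRT5_WT here and read as wild-type SIRT5), and a plasmid carrying SIRT5 with the F101L mutation (SIRT5_F101L). All 3 groups carry the genotype label of a wild-type mouse. The plasmids entered the cells by transfection, and the labels say nothing of what the control cells received, of strain, sex or age, or of whether libraries came from separate animals or cultures. The p-values below therefore measure the spread between these libraries, which may be technical. Replicate numbers follow the order of deposition and do not pair libraries across groups.

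The TCA cycle oxidises the acetyl group of acetyl-CoA to carbon dioxide in the mitochondrial matrix and passes the electrons to the respiratory chain. Pyruvate enters as acetyl-CoA through the pyruvate dehydrogenase complex or as oxaloacetate through pyruvate carboxylase, while malic enzymes, mitochondrial PEP carboxykinase and aminotransferases move carbon out of the cycle or back into it. Chondrocytes live in poorly oxygenated tissue and draw much of their ATP from glycolysis, and their cycle also serves biosynthesis and redox balance. SIRT5 is a mitochondrial deacylase that removes succinyl, malonyl and glutaryl groups from lysines, and several enzymes of the cycle are among its known substrates. Levels of mRNA say nothing of these protein modifications.

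Library totals ran from 15095357 to 24242139 counts, so 1 count was worth 0.0413 to 0.0662 CPM (a count scaled to library size) before scaling. Levels below are CPM scaled by the TMM method, as mean ± SD over 4 libraries, and a gene is called changed where edgeR's quasi-likelihood test gave a Benjamini-Hochberg adjusted p under 0.05 over the 14253 genes tested. No rise of Sirt5 itself was detected with either plasmid: it measured 0.688 ± 0.169 CPM in control, 0.384 ± 0.229 in SIRT5_WT and 0.721 ± 0.346 in SIRT5_F101L, and edgeR's adjusted p against control was 0.143 and 0.954. The cartilage collagen Col2a1 stood at 6719 ± 691, 1665 ± 56.2 and 1312 ± 95.2 CPM in the 3 groups, and the cartilage proteoglycan Acan at 133 ± 16.0, 185 ± 6.01 and 143 ± 8.08. Of 8 chondrocyte markers, 2 rose and 6 fell with SIRT5_WT, and 1 rose and 6 fell with SIRT5_F101L, where 28.1% and 30.7% of all genes tested fell. The summed level of the list was 9035 to 11337 CPM in control, 2812 to 2927 in SIRT5_WT and 2293 to 2537 in SIRT5_F101L. The 6 fibroblast markers summed to 30070 to 35975, 10913 to 12151 and 10755 to 11907 CPM, with 2 called higher and 4 lower against control in each plasmid group. The 8 macrophage and leukocyte markers summed to 169 to 204, 130 to 149 and 139 to 178 CPM, with 1 of the 7 tested called higher and 6 lower in each plasmid group and Itgam at 0 in every library. Scarcer were markers of osteoblasts, at 18.0 to 24.8 CPM summed in control, 4.11 to 4.79 in SIRT5_WT and 3.51 to 5.21 in SIRT5_F101L, and of skeletal muscle, at 8.42 to 8.83, 2.37 to 3.86 and 1.98 to 3.37, both lower in every plasmid library than in every control library. Markers of endothelium (2.6 to 4.53 over all libraries) and red cells (0 to 0.219, summed over the globin genes Hba-a1 and Hbb-bt) were scarce too, and 4 adipocyte markers summed to 202 to 226, 84.8 to 91.4 and 86.3 to 104. Of the 2 adipocyte markers tested, Lpl was called lower (191, 55.7 and 65.0 CPM) and Fabp4 higher (24.5, 32 and 30.4 CPM) with each plasmid. In such bulk samples fewer cells of a type and less RNA per cell cannot be told apart, and the part that these markers' cells play in the values below was not tested.

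All 33 genes passed the expression filter. Levels per kilobase divide CPM by the length of the gene's longest annotated protein-coding transcript, which may not be the form these cells express. In control cells, per kilobase of transcript, the mitochondrial malate dehydrogenase Mdh2 stood highest at 168 ± 7.03 CPM per kb, and its lowest library lay above the highest library of every other member. Glud1 (98.8 ± 4.12), Slc25a1 (93.4 ± 6.12), Sdhb (90.4 ± 4.46), Sdhd (90.1 ± 8.42) and Mdh1 (86.5 ± 1.43) followed, and neighbours in that order overlapped between libraries. At the foot of the order stood Mpc1 at 3.46 ± 0.848 CPM per kb, Me3 at 6.75 ± 0.556 and Pdhx at 9.22 ± 0.567, and no library of one of these 3 overlapped another. Within a group the libraries agreed closely for most members: the median coefficient of variation was 4.95% in control, 5.46% in SIRT5_WT and 6.68% in SIRT5_F101L, with Mpc1 the most variable in each (24.5%, 16.1% and 29.9%). More than 10% was reached by 1, 2 and 8 members respectively. Pdha1 and Idh3g, which complete the pyruvate dehydrogenase and NAD-dependent isocitrate dehydrogenase complexes, are X-linked and were not analysed here, because all 2414 X-linked IDs held 0 in every library.

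Because the treatment of the control cells is not stated and no rise of Sirt5 was detected, the effect of transfection and that of the SIRT5 protein cannot be told apart in any comparison with control. In the SIRT5_WT group, 21 of the 33 genes were changed against control, 14 upward and 7 downward. That is 63.6% of the members, beside 56.8% of all genes tested, of which 28.7% were higher and 28.1% lower. In the SIRT5_F101L group 24 were changed, 15 upward and 9 downward, which is 72.7% beside 60.7% of all genes (30.0% higher, 30.7% lower). The median log2 fold change of the members was 0.15 with SIRT5_WT and 0.06 with SIRT5_F101L, where all genes had -0.01 and -0.02. With each library's dependence of CPM on transcript length removed (the length trend, an alternative added after the data were seen), the members' median was 0.19 with each plasmid. In the original fit their median absolute log2 fold change was 0.35 and 0.28, against 0.37 and 0.40 over all genes. Most of the changes were thus small, and a typical member moved no further than a typical gene. Whether the share of members called differs from that of all genes was not tested.

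A change of at least 1.5-fold was called for 6 members with SIRT5_WT (29.4% of all genes) and for 7 with SIRT5_F101L (32.5%). Together these are 8 genes: Pck2, Idh2, Me3 and Mpc2 on the lower side, and Me2, Idh3a, Me1 and Got2 on the higher. The libraries of the 2 groups did not overlap for 22 members with SIRT5_WT, where 53.5% of all genes did so, and for 21 members with SIRT5_F101L, where 51.3% did. Both comparisons use the same 4 control libraries, so their values are set side by side and are not independent. Called in both were 21 members, 14 higher and 7 lower, and none was called in opposite directions. Dld, Slc25a1 and Sdhb were called with SIRT5_F101L alone, and the difference between the plasmid groups was not called for any of these 3. The other 9 members were called in neither: Mpc1, Pdhb, Pdhx, Aco1, Idh3b, Suclg1, Sdhd, Fh1 and Mdh1.

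**Figure D1:**
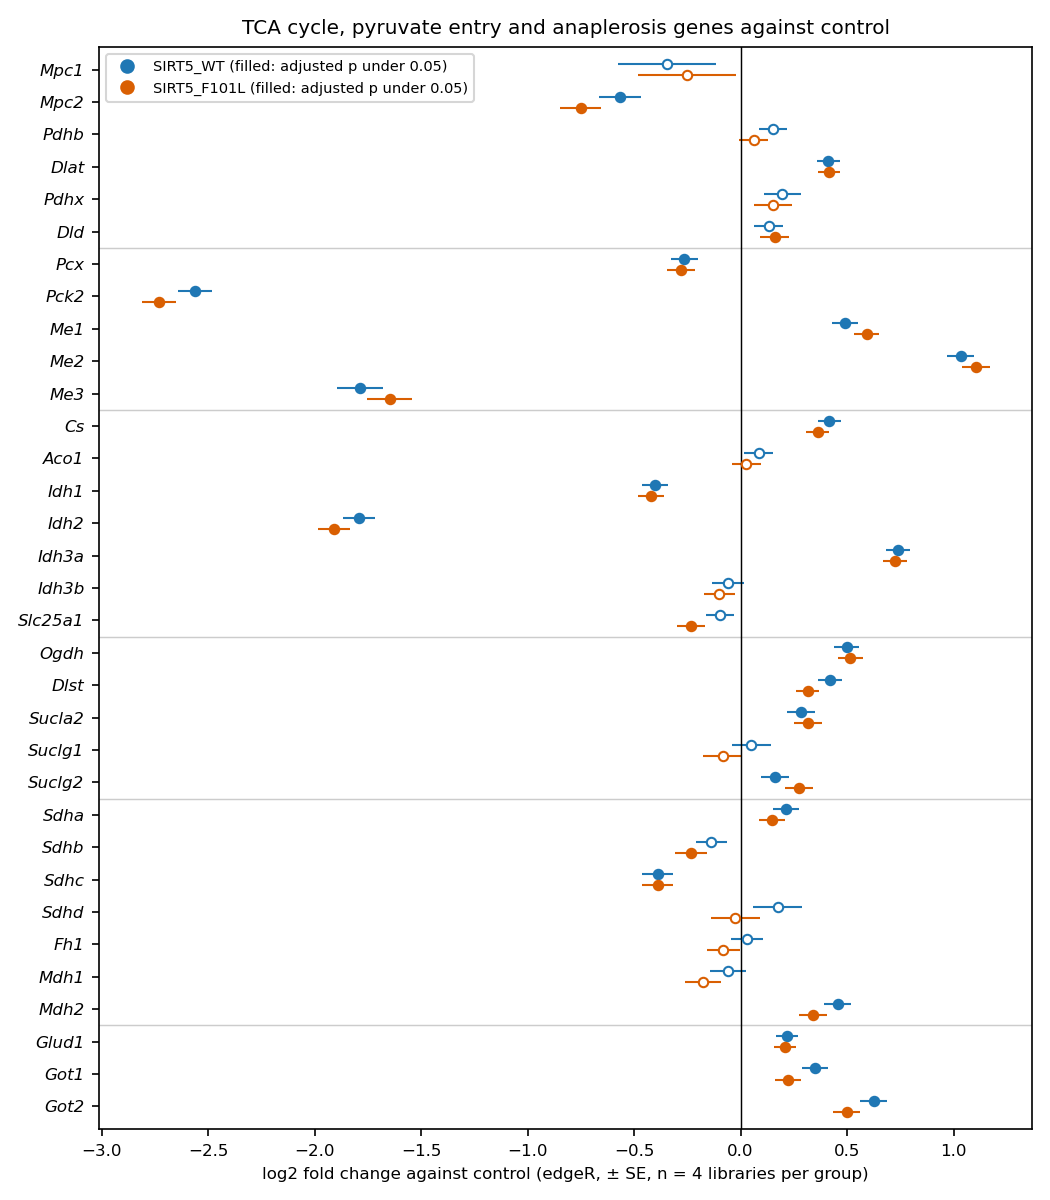
Log2 fold change against control (x axis) of each of the 33 genes, in 6 groups by role, for SIRT5_WT (blue) and SIRT5_F101L (orange). Points are edgeR estimates and bars their SE over 4 libraries a group, and filled points have an adjusted p under 0.05. Pck2, Idh2 and Me3 lie far to the left at -2.73 to -1.65, and all other members lie between -0.75 and 1.11.

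In the reactions that link pyruvate, malate and oxaloacetate, all 5 genes changed with both plasmids, 2 upward and 3 downward, where 56.8% and 60.7% of all genes changed. Among them was Pck2, the member that changed most in both comparisons. Pck2 (ENSMUSG00000040618), the mitochondrial PEP carboxykinase that turns oxaloacetate into phosphoenolpyruvate, measured 198, 187, 203 and 198 CPM in the 4 control libraries. It measured 32.2, 32.3, 34.0 and 34.6 CPM with SIRT5_WT, and 34.7, 25.5, 26.9 and 31.2 with SIRT5_F101L. Every plasmid library lay far below every control library, and the plasmid groups overlapped each other. The log2 fold change of Pck2 was -2.56 (SE 0.08, adjusted p 4.70e-16 by edgeR) with SIRT5_WT and -2.73 (SE 0.08, adjusted p 1.95e-16) with SIRT5_F101L, so 0.169 and 0.150 of the control level remained. Its position among the 33 genes in level per kilobase moved from 19 in control to 31 in SIRT5_WT. Pcx, the pyruvate carboxylase that makes oxaloacetate, fell far less, from 67.6 ± 1.21 CPM to 56.3 ± 2.95 and 55.6 ± 3.85 (log2 fold change -0.26 and -0.28, adjusted p 0.00169 and 0.000895). Pck2's share of the summed level per kilobase of Pck2 and Pcx went from 72.3% ± 0.407 to 34.7% ± 1.12 and 32.2% ± 2.28.

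The 3 malic enzymes, which convert malate to pyruvate, did not move together. Me2 (ENSMUSG00000024556), the mitochondrial enzyme that prefers NAD, measured 44.0, 43.2, 38.3 and 39.7 CPM in control, 81.9, 83.9, 81.2 and 91.0 with SIRT5_WT, and 90.1, 88.4, 90.6 and 86.3 with SIRT5_F101L. Both plasmid groups stood about level with each other and above every control library, at a log2 fold change of 1.03 (SE 0.06, adjusted p 2.41e-11 by edgeR) and 1.11 (SE 0.06, adjusted p 7.57e-12). Me3 (ENSMUSG00000030621), the mitochondrial enzyme that uses NADP, went the other way. Its control libraries held 27.4, 30.6, 29.6 and 33.4 CPM, those of SIRT5_WT 8.29, 9.75, 9.07 and 8.08, and those of SIRT5_F101L 9.30, 9.36, 8.50 and 11.6. The groups did not overlap with control, and the log2 fold change was -1.79 (SE 0.11, adjusted p 1.36e-11) and -1.65 (SE 0.10, adjusted p 3.83e-11). Me1 (ENSMUSG00000032418), the cytosolic NADP enzyme that supplies NADPH, measured 156, 151, 149 and 134 CPM in control, 206, 197, 221 and 203 with SIRT5_WT, and 216, 232, 228 and 214 with SIRT5_F101L. It rose 1.40-fold and 1.51-fold with no overlap (log2 fold change 0.49 and 0.59, SE 0.06 each, adjusted p 7.64e-07 and 4.94e-08). The second value was under 1.5-fold without control replicate 4 (0.55) or SIRT5_F101L replicate 2 (0.57) or 3 (0.58), and under upper-quartile scaling (0.55), though called in each. Near-identical copies in annotated transcripts of other genes cover 60.1% of the Me1 transcript, 8.87% of that of Me3 and 7.48% of that of Pck2. How the authors' counting divided their reads is therefore uncertain. Within the family, Me1 kept 64.9% to 66.6% of the summed level per kilobase in the 3 groups, while the share of Me2 went from 23.3% ± 0.921 to 33.1% ± 1.89 and 32.6% ± 0.815 and that of Me3 from 10.1% ± 1.26 to 2.03% ± 0.206 and 2.10% ± 0.340. Shares of this kind are formed within a library and do not depend on the scaling between libraries.

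**Figure D2:**
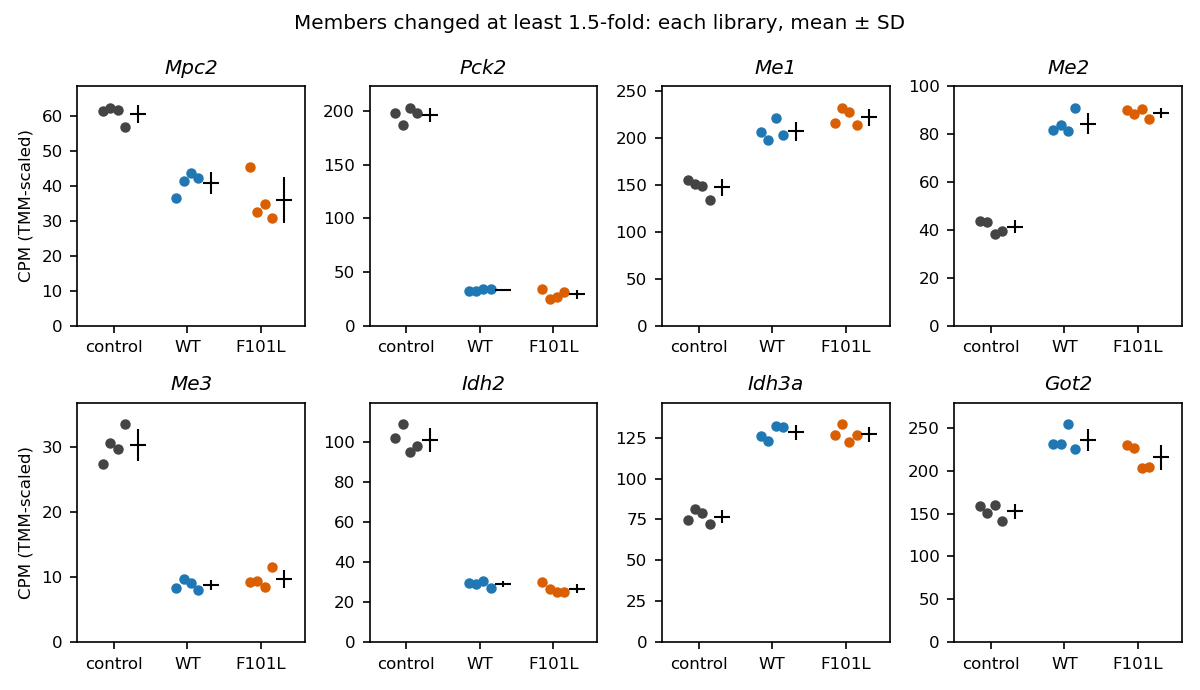
CPM (TMM-scaled, y axis from 0) in each library for the 8 genes changed at least 1.5-fold in either comparison with control, with control in grey, SIRT5_WT (WT) in blue and SIRT5_F101L (F101L) in orange. Dots are libraries, and the cross beside them is the mean ± SD of 4. In all 8 panels the control libraries lie apart from both plasmid groups, as with Pck2 at 187 to 203 CPM against 25.5 to 34.7.

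At the citrate and isocitrate steps, 4 of 7 genes changed with SIRT5_WT and 5 with SIRT5_F101L, beside 56.8% and 60.7% of all genes. The 3 kinds of isocitrate dehydrogenase differed in direction. Idh2 (ENSMUSG00000030541), the mitochondrial NADP-dependent enzyme, measured 102, 109, 95 and 97.7 CPM in control, 29.4, 29.3, 30.8 and 27.0 with SIRT5_WT, and 30.2, 26.5, 25.3 and 25.2 with SIRT5_F101L. Control libraries thus stood at least 3-fold above every plasmid library, and the log2 fold change was -1.79 (SE 0.07, adjusted p 3.75e-14 by edgeR) and -1.91 (SE 0.07, adjusted p 1.41e-14). Idh3a (ENSMUSG00000032279), the catalytic subunit of the NAD-dependent enzyme of the cycle proper, measured 74.6, 81.6, 78.8 and 72.1 CPM in control, 126, 123, 132 and 132 with SIRT5_WT, and 126, 133, 122 and 126 with SIRT5_F101L. It rose without overlap by 0.74 and 0.73 on the log2 scale (SE 0.06 each, adjusted p 1.12e-09 and 1.42e-09). Its partner subunit Idh3b was not called, at 109, 105 and 102 CPM (adjusted p 0.517 and 0.249), but without SIRT5_F101L replicate 1 it was called lower with SIRT5_F101L (log2 fold change -0.19, adjusted p 0.00667). With the length trend removed its log2 fold change had the opposite sign, at 0.07 with SIRT5_WT and 0.10 with SIRT5_F101L (adjusted p 0.271 and 0.0943). The cytosolic NADP-dependent enzyme Idh1 fell from 174 ± 8.51 CPM to 132 ± 7.64 and 130 ± 6.23, a log2 fold change of -0.40 and -0.42 (adjusted p 1.05e-05 and 5.33e-06). Of the summed level per kilobase of Idh2 and Idh3a, Idh2 held 66.0% ± 1.29 in control and 25.1% ± 1.29 and 23.8% ± 1.59 with the plasmids. Of Idh1 and Idh2 together, Idh2 held 43.3% ± 0.706, 22.6% ± 1.93 and 21.4% ± 1.28. Idh2 thus held the larger part of its pair with Idh3a in every control library, and Idh3a in every plasmid library.

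Citrate synthase, Cs, which joins acetyl-CoA to oxaloacetate, rose from 178 ± 4.86 CPM to 238 ± 7.46 and 229 ± 11.6 (log2 fold change 0.42 and 0.36, edgeR adjusted p 1.89e-06 and 1.04e-05). Aco1, the cytosolic aconitase that doubles as an iron-responsive RNA-binding protein, was not called at 56.6, 60.1 and 57.7 CPM (adjusted p 0.289 and 0.740). Slc25a1, the carrier that exports citrate to the cytosol, was called lower with SIRT5_F101L alone, at a log2 fold change of -0.23 (adjusted p 0.00472). Its libraries held 157, 154, 168 and 144 CPM in control, 139, 144, 150 and 149 with SIRT5_WT, and 149, 127, 128 and 126 with SIRT5_F101L, so that replicate 1 of SIRT5_F101L lay within the control range and the other 3 below it. With each library's dependence of CPM on transcript length removed, an alternative added after the data were seen, this call was lost (log2 fold change -0.04, adjusted p 0.527). The slope of log2 CPM on log2 length, relative to the mean of all libraries, was -0.0965 to -0.0580 in control and -0.0695 to 0.137 in the plasmid libraries.

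**Figure D3:**
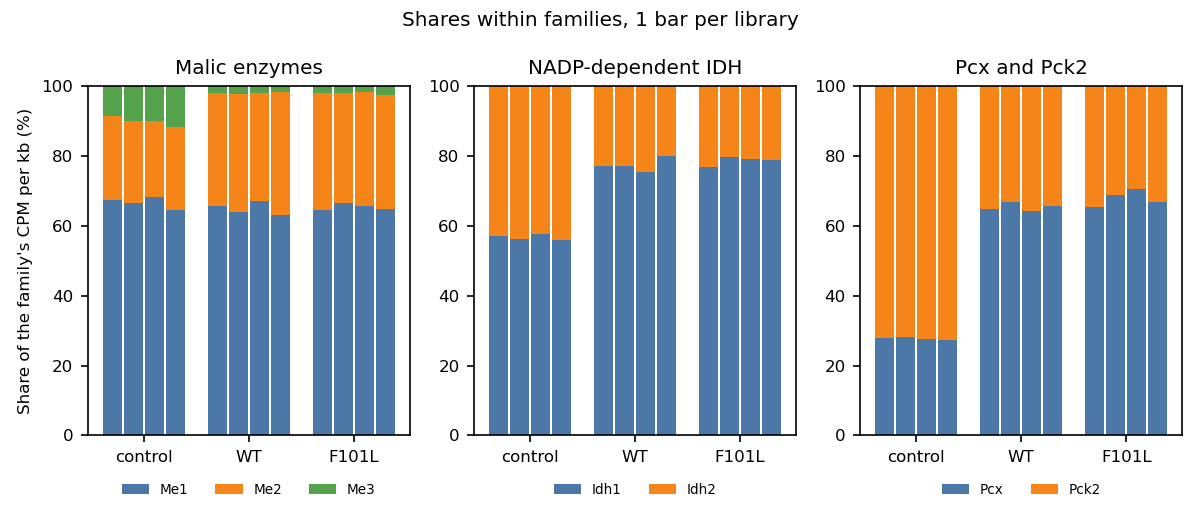
Share of the family's summed CPM per kilobase (y axis, percent) held by each gene, 1 stacked bar per library, for the malic enzymes, the NADP-dependent isocitrate dehydrogenases (IDH) and the pair Pcx and Pck2. Me3 falls from 10.1% to about 2%, Idh2 from 43.3% to 22.6% and 21.4%, and Pck2 from 72.3% to 34.7% and 32.2%, with all 4 bars of a group close to each other.

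The 3 genes with the deepest falls, Pck2, Me3 and Idh2, fell with both plasmids, so the sequence before their start sites is shown. RefSeq promoter windows on GRCm38.p6, of 300 bases each, were at hand for 30 of the 33 members. The runs below are the 250 bases before the annotated start, 5′ to 3′ on the gene's strand, at chr14:55540016-55540265 (plus strand) for Pck2, chr7:89632568-89632817 (plus) for Me3 and chr7:80115351-80115600 (minus) for Idh2. Capitals mark matches, on either strand, to the C/EBP-ATF response element (TGATGNAA) or to the CCAAT box (CCAAT).
Pck2: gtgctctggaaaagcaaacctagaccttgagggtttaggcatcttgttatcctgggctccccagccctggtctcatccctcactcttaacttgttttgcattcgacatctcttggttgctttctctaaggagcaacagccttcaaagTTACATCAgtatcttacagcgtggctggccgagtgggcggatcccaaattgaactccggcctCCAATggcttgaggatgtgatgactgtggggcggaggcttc
Me3: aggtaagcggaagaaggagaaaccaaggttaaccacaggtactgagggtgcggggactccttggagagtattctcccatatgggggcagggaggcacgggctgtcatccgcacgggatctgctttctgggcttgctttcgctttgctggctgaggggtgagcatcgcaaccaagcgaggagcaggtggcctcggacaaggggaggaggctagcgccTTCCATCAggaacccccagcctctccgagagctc
Idh2: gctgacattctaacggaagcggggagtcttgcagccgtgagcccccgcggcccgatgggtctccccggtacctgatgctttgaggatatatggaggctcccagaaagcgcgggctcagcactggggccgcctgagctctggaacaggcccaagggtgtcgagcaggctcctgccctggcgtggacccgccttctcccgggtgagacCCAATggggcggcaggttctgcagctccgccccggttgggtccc
The C/EBP-ATF element begins at base 148 of the Pck2 run and at base 217 of the Me3 run, and the Idh2 window holds none. A CCAAT box begins at base 210 in Pck2 and at base 207 in Idh2, and the matches do not overlap one another. Over all 32851 windows of the same length on the chromosomes used, 3.97% hold the C/EBP-ATF letters and 37.4% the CCAAT letters. Among the members the C/EBP-ATF letters were found in 3, Pck2, Me3 and Got1, and Got1 rose while Pck2 and Me3 fell. The CCAAT letters were found in 26 of 39 member windows. These included windows of Cs and Ogdh, which rose, and of Idh1 and Mpc2, which fell. The letters of the antioxidant response element (TGACNNNGC, 12.4% of windows), of the NRF1 site (4.6%), of the cyclic AMP response element (TGACGTCA, 1.79%) and of the E-box (CACGTG, 7.15%) were not found in the 3 windows shown. A match is a run of letters and no measurement of binding.

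In pyruvate entry, 2 of 6 genes changed with SIRT5_WT, Mpc2 downward and Dlat upward, and Dld also rose with SIRT5_F101L, beside 56.8% and 60.7% of all genes called. Mpc2 (ENSMUSG00000026568), a subunit of the mitochondrial pyruvate carrier, measured 61.6, 62.5, 61.8 and 56.9 CPM in control, 36.5, 41.4, 43.8 and 42.4 with SIRT5_WT, and 45.6, 32.7, 35.0 and 30.8 with SIRT5_F101L. All plasmid libraries were lower than all control libraries, and SIRT5_F101L replicate 1 was the highest of its group by over 10 CPM. The log2 fold change was -0.57 (SE 0.10, adjusted p 4.89e-05 by edgeR) and -0.75 (SE 0.10, adjusted p 1.48e-06). With each library's dependence of CPM on transcript length removed it was -0.36 and -0.41, called in both but under 1.5-fold. Its obligate partner Mpc1 was too scarce and variable to place, at 3.33 ± 0.815, 2.63 ± 0.423 and 2.80 ± 0.838 CPM (log2 fold change -0.35 and -0.25, adjusted p 0.215 and 0.362), and 35.7% of its transcript has near-identical copies elsewhere. Of the pyruvate dehydrogenase complex, Dlat, the acetyltransferase core, rose from 90.3 ± 3.09 CPM to 120 ± 1.49 and 121 ± 1.72. That is 0.41 and 0.42 on the log2 scale (adjusted p 1.10e-06 and 9.02e-07), and no library overlapped with control. Pdhb, the E1 beta subunit, was not called at 73.3 ± 2.05, 81.5 ± 7.29 and 76.5 ± 4.10 CPM (adjusted p 0.0586 and 0.448), nor was Pdhx, which ties E3 to the core, at 23.1, 26.4 and 25.7 CPM (adjusted p 0.0627 and 0.139). With SIRT5_WT, Pdhb was called higher without SIRT5_WT replicate 1 (adjusted p 0.0412) or SIRT5_F101L replicate 1 (0.0287), and Pdhx without SIRT5_F101L replicate 1 (0.0442). Both were also called in a fit of only the 8 libraries compared (0.0222 and 0.0338). With the length trend removed in this way, Pdhb rose by 0.29 on the log2 scale in both comparisons and Pdhx by 0.24 and 0.23, all called. Dld, the E3 subunit that this complex shares with the 2-oxoglutarate dehydrogenase complex, was called higher with SIRT5_F101L only just, at 110 ± 9.08 against 124 ± 9.31 CPM (adjusted p 0.0474). The call on Dld was lost without control replicate 1, 2 or 4, without any one SIRT5_WT library or without SIRT5_F101L replicate 1, 2 or 3 (adjusted p 0.0506 to 0.160), and also under upper-quartile scaling (0.138) and with no filter beyond 1 count (0.0766). With SIRT5_WT, Dld was called without control replicate 3 (adjusted p 0.0303), in a fit of only the 8 libraries compared (0.0335) and with the length trend removed (0.0138). In level per kilobase, Dlat's share of the 4 measured subunits went from 18.1% ± 0.353 to 21.1% ± 0.961 and 21.5% ± 1.18.

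From 2-oxoglutarate to succinate, 4 of 5 genes rose with each plasmid and none fell, where 28.7% and 30.0% of all genes were called higher. Ogdh, the E1 subunit of the 2-oxoglutarate dehydrogenase complex, went from 159 ± 7.86 CPM to 224 ± 6.94 and 227 ± 12.5 (log2 fold change 0.50 and 0.51, edgeR adjusted p 3.70e-07 and 2.13e-07). Dlst, its succinyltransferase core, went from 146 ± 6.66 to 195 ± 8.46 and 182 ± 5.01 (log2 fold change 0.42 and 0.31, adjusted p 2.03e-06 and 6.17e-05). Both stood above the control range in all 8 plasmid libraries. Among the subunits of succinyl-CoA ligase, Sucla2, the ADP-forming beta subunit, rose from 92.0 ± 4.70 CPM to 112 ± 7.99 and 114 ± 7.03 (adjusted p 0.00111 and 0.000355). Suclg2, the GDP-forming beta subunit, was at 45.1 ± 2.11, 50.4 ± 2.87 and 54.5 ± 2.04 CPM (adjusted p 0.0442 and 0.00127), and copies elsewhere cover 38.7% of its transcript. Without control replicate 1, 2 or 3 or SIRT5_WT replicate 2, 3 or 4, the SIRT5_WT call on Suclg2 was lost (adjusted p 0.0541 to 0.136), as it was under upper-quartile scaling (0.164) and with no filter beyond 1 count (0.130). Suclg1, the alpha subunit common to both forms of the ligase, was not called at 80.3, 83.2 and 75.7 CPM (adjusted p 0.656 and 0.438), but was called higher with SIRT5_WT once the length trend was removed (log2 fold change 0.19, adjusted p 0.0168). The share of Sucla2 in the beta subunits stayed between 75.5% and 77% per kilobase in the 3 groups.

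The subunits of succinate dehydrogenase, which is also complex II of the respiratory chain, moved in different directions. Sdha, the flavoprotein subunit that oxidises succinate, rose from 204 ± 12 CPM to 236 ± 9.14 and 225 ± 14.5 (log2 fold change 0.21 and 0.15, edgeR adjusted p 0.00617 and 0.0449). The SIRT5_F101L call on Sdha was lost without control replicate 2 or 4, without any one SIRT5_WT library or without SIRT5_F101L replicate 1 or 2 (adjusted p 0.0504 to 0.154), and under upper-quartile scaling (0.146) and with no filter beyond 1 count (0.100). Sdhc, a membrane anchor, fell from 121 ± 10.2 CPM to 92.3 ± 7.53 and 92.3 ± 6.16, with no overlap (log2 fold change -0.39 in both, adjusted p 0.000152 and 0.000138). Sdhb, the iron-sulfur subunit, was at 103 ± 5.09, 93.9 ± 8.72 and 87.8 ± 8.01 CPM and was called with SIRT5_F101L alone (log2 fold change -0.14 and -0.23, adjusted p 0.126 and 0.0109). Without SIRT5_WT replicate 4 or under upper-quartile scaling it was called lower with SIRT5_WT too (adjusted p 0.0352 and 0.0354). With the length trend removed the Sdhb difference changed sign in both comparisons, to 0.05 and 0.08. Sdhd, the other membrane anchor, was not called and varied widely within SIRT5_F101L, where its libraries held 145, 84.4, 104 and 102 CPM against 99.9 to 121 in control and 115 to 138 in SIRT5_WT. Its log2 fold change with SIRT5_F101L was -0.02 (adjusted p 0.868), -0.19 without replicate 1 (adjusted p 0.0283) and 0.26 with the length trend removed (adjusted p 0.00517), so neither a call nor a direction can be given for Sdhd there. With SIRT5_WT its log2 fold change was 0.17 (adjusted p 0.206). Sdhd was called at 0.18 without SIRT5_F101L replicate 1 (adjusted p 0.0298) and at 0.18 with no filter beyond 1 count (adjusted p 0.0460). It was also called in a fit of only the 8 libraries compared (0.19, adjusted p 0.0121) and with the length trend removed (0.35, adjusted p 0.000311). This call too thus depended on the setting. Per kilobase, Sdhc's share of the 4 subunits went from 13.2% ± 0.983 to 9.89% ± 0.631 and 10.8% ± 1.02, and that of Sdha from 24.3% ± 1.14 to 27.7% ± 1.09 and 28.7% ± 1.55.

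Fh1, the fumarase, was not called at 64.7, 66.0 and 61.2 CPM (edgeR adjusted p 0.759 and 0.373). Mdh2, the mitochondrial malate dehydrogenase that regenerates oxaloacetate, rose from 245 ± 10.2 CPM to 336 ± 24.3 and 310 ± 18.8 with no overlap (log2 fold change 0.46 and 0.34, adjusted p 3.93e-06 and 0.000115). With the length trend removed the Mdh2 value was 0.60 with SIRT5_WT, past 1.5-fold, and 0.58 with SIRT5_F101L, just under it. Its cytosolic counterpart Mdh1 was not called at 184 ± 3.03, 176 ± 25.4 and 163 ± 17.1 CPM (adjusted p 0.576 and 0.0824), but without SIRT5_F101L replicate 1 it was called lower with SIRT5_F101L (log2 fold change -0.25, adjusted p 0.00339), as it was without SIRT5_WT replicate 4 (-0.18, adjusted p 0.0438) and, with all libraries kept, under upper-quartile scaling (-0.22, adjusted p 0.0295) and with no filter beyond 1 count (-0.18, adjusted p 0.0335). Control libraries of Mdh1 were the most uniform of any member, at 180 to 187 CPM, while SIRT5_WT ranged from 150 to 209. Mdh2's share of the pair per kilobase was 66.0% ± 1.15 in control and 73.6% ± 2.05 and 73.6% ± 0.954 with the plasmids.

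The 3 genes that tie the cycle to glutamate and aspartate all rose with both plasmids, where 28.7% and 30.0% of all genes were called higher. Got2 (ENSMUSG00000031672), the mitochondrial aspartate aminotransferase of the malate-aspartate shuttle, measured 158, 151, 160 and 141 CPM in control, 231, 231, 254 and 225 with SIRT5_WT, and 229, 227, 203 and 204 with SIRT5_F101L. Every plasmid library stood above every control library, at 1.54-fold and 1.41-fold of the control level (log2 fold change 0.63 and 0.50, SE 0.06 each, edgeR adjusted p 5.02e-08 and 1.10e-06). Its cytosolic counterpart Got1 rose less, from 83.3 ± 3.85 CPM to 106 ± 6.23 and 97.1 ± 4.13 (log2 fold change 0.35 and 0.22, adjusted p 5.70e-05 and 0.00382), and the second of these was 0.36 with the length trend removed. Got2's share of the pair per kilobase was 59.8% ± 1.4, 64.3% ± 1.76 and 64.3% ± 1.66. Glud1, the glutamate dehydrogenase that yields 2-oxoglutarate, rose from 335 ± 14.0 CPM to 389 ± 7.61 and 387 ± 5.28 (log2 fold change 0.22 and 0.21, adjusted p 0.00138 and 0.00176). Copies of at least 95% identity elsewhere cover 72.5% of the Got2 transcript, 71.3% of that of Pdhb and 27.8% of that of Glud1, which makes the division of their reads uncertain.

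Between the plasmids, no difference was detected for any of the 33 genes with all libraries kept. None was called by edgeR (smallest adjusted p 0.413), where 0.0421% of all genes, 6 in number, were called. Only 2 members had an unadjusted p under 0.05, beside 11.9% of all genes, and none had groups that did not overlap, beside 4.02%. Estimates ran from -0.20 to 0.14 on the log2 scale, SIRT5_F101L against SIRT5_WT, with 23 members lower and 10 higher and a median of -0.05. The 3 lowest p-values belonged to Got1 at -0.13 (95% interval -0.26 to -0.0025), Pck2 at -0.17 (-0.34 to -0.0012) and Slc25a1 at -0.14 (-0.28 to 0.00095). For 32 of the 33 genes the 95% interval lay within 0.58 (1.5-fold) either way, the exception being Mpc1, with an upper bound of 0.59. Differences of 1.5-fold or more thus lay outside the interval for all but Mpc1. How far smaller ones did so varied by member, the interval being -0.10 to 0.11 for Dlat and -0.44 to 0.041 for Sdhd.

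One library decides how this comparison reads. SIRT5_F101L replicate 1 was the highest of its group for 21 of the 33 members, but other groups had such libraries too: SIRT5_WT replicate 4 was highest for 20, SIRT5_WT replicate 1 lowest for 20 and control replicate 4 lowest for 22. On the second principal component of log2(CPM + 2), it lay at 15.2, beside SIRT5_WT replicates 2 to 4 at 7.06 to 13.0, while the other SIRT5_F101L libraries lay at -14.2 to -11.8 and SIRT5_WT replicate 1 between them at -1.65. The slope of its log2 CPM on log2 transcript length, taken relative to the mean of all libraries, was -0.0695, against 0.114 to 0.137 in the other 3. Among SIRT5_WT libraries it was 0.0690 in replicate 1 and -0.0420 to 0.0064 in the others. Without that library, 5 members were called, all lower with SIRT5_F101L, where 15.2% of all genes were called. They were Mpc2 (log2 fold change -0.32, adjusted p 0.00475), Sdhd (-0.37, adjusted p 0.00126), Pck2 (-0.26, adjusted p 0.0146), Slc25a1 (-0.20, adjusted p 0.0198) and Suclg1 (-0.22, adjusted p 0.04999). Their longest annotated protein-coding transcripts are 1025, 1231, 4625, 1666 and 1519 bp long. Leaving out any other library left no member called. With all libraries kept and the length trend removed, no member was called either, and the median over members was -0.01.

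**Figure D4:**
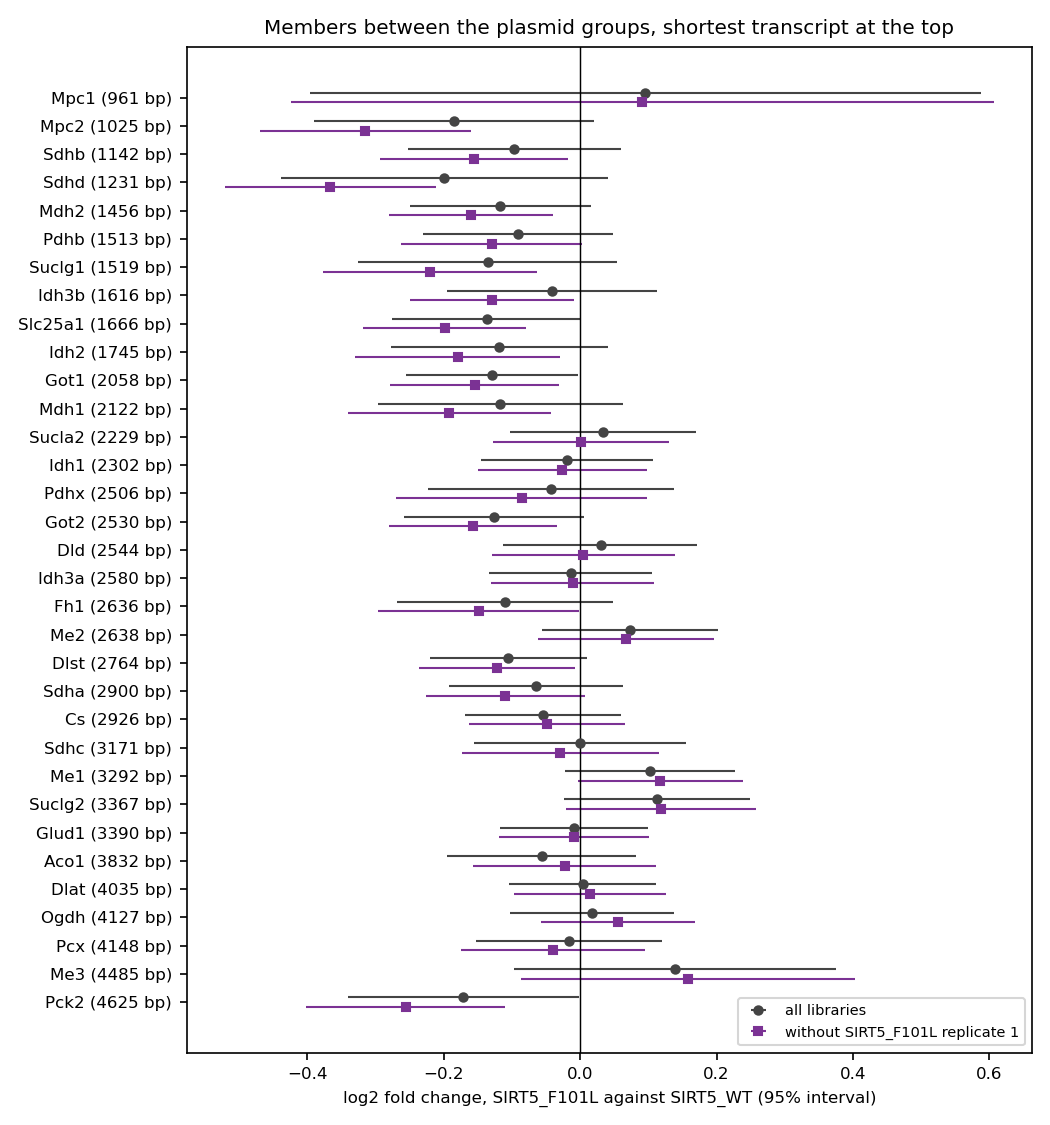
Log2 fold change of SIRT5_F101L against SIRT5_WT (x axis) for the 33 genes, ordered by transcript length with the shortest at the top. Grey circles use all libraries and purple squares leave out SIRT5_F101L replicate 1, and bars are 95% intervals. Without that library, Mpc2, Sdhd, Slc25a1, Suclg1 and Pck2 are called after adjustment over all genes, at -0.37 to -0.20, and the unadjusted intervals of some others also leave out 0.

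Neighbouring enzymes and regulators were read from 8 short lists of 41 genes, of which 39 were tested. With SIRT5_WT 25 changed (12 upward, 13 downward), which is 64.1%, and with SIRT5_F101L 26 (11 upward, 15 downward), which is 66.7%, where 56.8% and 60.7% of all genes were called. None was called between the plasmids. Pdp1, the phosphatase that switches pyruvate dehydrogenase on, fell most, from 118 ± 7.72 CPM to 17.6 ± 0.880 and 18.9 ± 1.85 (log2 fold change -2.74 and -2.65, SE 0.08 each, edgeR adjusted p 1.45e-16 and 2.11e-16). Among the 6 kinases, phosphatases and their regulatory subunit, 1 rose and 2 fell with SIRT5_WT, and 2 rose and 2 fell with SIRT5_F101L. Of the 2 lactate dehydrogenases, which draw pyruvate away from the mitochondrion or back, 1 rose and 1 fell with each plasmid.

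Glutamine and alanine handling changed in 7 of 8 genes with each plasmid, 3 upward and 4 downward, beside 56.8% and 60.7% of all genes called. Gls2, a mitochondrial glutaminase, rose from 1.36 ± 0.658 CPM to 5.85 ± 0.790 and 5.37 ± 0.571 (log2 fold change 2.08 and 1.96, SE 0.24 each, edgeR adjusted p 3.36e-07 and 7.90e-07), still a low level. Gpt2, the mitochondrial alanine aminotransferase that joins pyruvate and glutamate, fell from 45.2 ± 2.73 CPM to 23.4 ± 1.5 and 21.8 ± 0.606 (log2 fold change -0.95 and -1.05, adjusted p 1.04e-09 and 2.01e-10). In propionate entry, which ends at succinyl-CoA, 1 of 4 genes rose and 2 fell with each plasmid, and Pccb, a subunit of propionyl-CoA carboxylase, fell from 53.6 ± 4.02 CPM to 22.2 ± 2.09 and 20.0 ± 1.68 (log2 fold change -1.27 and -1.42, adjusted p 1.09e-10 and 1.96e-11). Of 4 assembly factors of succinate dehydrogenase, 1 fell with SIRT5_WT and 2 with SIRT5_F101L. One of them, Sdhaf4, which helps mature Sdha, went from 15.9 ± 0.793 CPM to 9.51 ± 1.16 and 6.65 ± 2.34 (log2 fold change -0.74 and -1.26, adjusted p 0.000628 and 2.13e-06; -0.48 and -0.82 with the length trend removed), with 12.7% of its exons overlapping another gene. Of the 6 carriers of dicarboxylates, aspartate and oxoglutarate, 2 rose and 2 fell with SIRT5_WT, and 1 rose and 2 fell with SIRT5_F101L. Lipoic acid attachment, needed by Dlat and Dlst, had 1 of 4 tested genes higher and 1 lower with SIRT5_WT and 2 lower with SIRT5_F101L. For itaconate, 2-hydroxyglutarate and cytosolic citrate use, 3 of 5 tested genes rose with each plasmid and none fell.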

How the data were processed

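RNA was measured in 12 libraries of primary mouse chondrocytes. The authors deposited 1 table per library of raw counts for each Ensembl gene ID, not normalised. The submitters' processing notes name FastQC 0.11.9, HISAT2 2.2.1, HTSeq 2.0.2, DESeq2 1.38.3 and the build GRCm39 (mm39), with no role given. The annotation and strand setting are not given in the sources used here, so reads from overlapping or antisense genes could not be separated. Symbols came from a supplied table (52029 of 57010 IDs). Transcript lengths, exon overlaps and copies of at least 95% identity over at least 100 bp came from GENCODE M21, which is on another build and gives no coordinates here. The length was that of each gene's longest protein-coding transcript. Copies were sought among annotated transcripts of other genes only.

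Counts were tested with edgeR 4.0.16 in R 4.3.3: filterByExpr by group, TMM scaling, quasi-likelihood models in which the 12 libraries shared 1 dispersion trend and each group had its own mean, 9 residual degrees of freedom, 2-sided tests, and Benjamini-Hochberg adjustment over 14253 genes. The biological coefficient of variation was 9.18%. No pair of libraries was identical, and within groups the chi-square over genes was 2.56 to 8.92 times that of sampling noise. The top of that range came from SIRT5_F101L replicate 1 against its own group (8.19 to 8.92). Against the SIRT5_WT libraries that replicate gave 2.61 to 6.27. Depth sets the counting error, and duplicate reads were not measured, as the reads carry no molecular identifiers. On simulated counts for each comparison with control (14096 genes), 99.0% of 100 genes changed 2-fold and 79.0% of 100 changed by 0.50 on the log2 scale were called. False calls made up 1.66% (SIRT5_WT) and 4.81% (SIRT5_F101L) of calls. No other simulated gene was changed, both plasmid groups had the same changes, and all genes and libraries had the same dispersion. In the data 56.8% and 60.7% of all genes were called, so these rates need not hold for the real calls.

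The members and all gene lists were chosen with earlier results of these data known. All 33 members are named. Those called against control at 1.5-fold or more are given library by library, and between the plasmids the 3 with the lowest p. Context genes are named where called at 2-fold or more with a mean of at least 5 CPM in a group, at most 2 a list. Alternatives were other scalings (RLE, upper quartile), other filters (none beyond 1 count, or a mean of at least 1 CPM), DESeq2 1.42.0, a robust fit, fits of only the 8 libraries compared, leaving out each library, and, added after the data were seen, a loess length trend (span 0.5) as offset.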

Additional observations from a re-analysis of the deposited data

Results flagged for a closer look

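Each library's CPM was set against the others of its group for 39 genes in 3 groups: the 33 members, Sirt5 and the 5 named context genes. In 9 of the 117 groups, the gap between the highest or lowest library and its nearest neighbour exceeded Dixon's 95% critical share of the group's range for 4 samples, where chance gives 5.85. SIRT5_F101L replicate 1 accounts for 4 of the 9, being highest for Pdhb at 82.7 CPM (others 74.3 to 74.7), Slc25a1 at 149 (126 to 128), Sdha at 247 (216 to 220) and Mdh2 at 338 (298 to 303). SIRT5_WT replicate 4 was highest for Pdhb at 92.3 CPM (76.6 to 79.0) and Dld at 128 (118 to 119). Among control libraries, Mpc2 was lowest in replicate 4 at 56.9 CPM (61.6 to 62.5), and Fh1 was highest in replicate 2 at 68.5 (63.0 to 63.9). Sirt5 stood at 1.23 CPM in SIRT5_F101L replicate 2, against 0.481 to 0.602 in the other 3.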

How the results depend on the processing

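With 20 alternatives, the number of members called against control ran from 20 to 26 for SIRT5_WT and from 22 to 25 for SIRT5_F101L (20 to 24 and 22 to 25 with 1 library left out), and 20 members were called under every setting in each comparison. All 8 genes changed at least 1.5-fold kept their direction against control under every alternative and were called under each. The size of 1.5-fold was not kept by Mpc2 with SIRT5_F101L with the length trend removed (-0.41), by Got2 with SIRT5_WT under upper-quartile scaling (0.58) or by Me1 with SIRT5_F101L under upper-quartile scaling and without 1 of 3 libraries (lowest 0.55). Mdh2 reached that size with SIRT5_WT once the length trend was removed (0.60). Between the plasmids, leaving out 1 library gave 0 to 5 members called, the 5 coming without SIRT5_F101L replicate 1, and the other alternatives gave none. Under upper-quartile scaling the sign of the log2 fold change turned for Fh1 with SIRT5_WT (-0.020) and for Aco1 (-0.017) and Sirt5 (-0.011) with SIRT5_F101L. With the length trend removed it turned with SIRT5_WT for Idh3b (0.069), Slc25a1 (0.025), Sdhb (0.049) and Mdh1 (0.014), and with SIRT5_F101L for Mpc1 (0.12), Aco1 (-0.032), Idh3b (0.10), Suclg1 (0.14), Sdhb (0.081) and Sdhd (0.26). With 1 library left out, values crossed 0 with SIRT5_WT for Mdh1 (-0.15 to 0.012), Suclg1 (-0.017 to 0.087) and Fh1 (-0.015 to 0.092), and with SIRT5_F101L for Sirt5 (-0.31 to 0.18), Sdhd (-0.19 to 0.078) and Aco1 (-0.0090 to 0.062). The cause of these reversals was not tested. No paired analysis was possible because the labels carry no shared replicate numbers. Counts were lowest, and precision least, for Mpc1 among the members and for Sirt5.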
